A study of Mus musculus with 6 samples.

Results

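The lysosomal genes described here are 36 genes that encode acid hydrolases, their soluble cofactors and proteins of the lysosomal membrane. They were chosen by gene symbol from a fixed list of names, and all 36 were among the 24062 symbols counted. No measured value is in the rule, but the list was drawn up with earlier results of these data known. It was therefore not tested as a whole. The 36 genes comprise 10 proteases, 12 glycosidases and sulfatases, 7 lipid enzymes and soluble cofactors, and 7 membrane proteins. All 36 carried enough reads to be tested, as did 13990 symbols in all.

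RNA was sequenced from C57BL/6 mouse embryonic fibroblasts, the connective tissue cells that grow out of minced embryos. One group of 3 libraries came from cells given a lentivirus for p27, the product of Cdkn1b and a brake on cyclin-dependent kinases (p27OE), and the other group of 3 is labelled EV control; all are at day 10. The labels do not spell out EV, name no promoter for the p27 construct, and do not state whether libraries of a group are separate cultures. The p-values below therefore describe the spread between these libraries. Within each group the libraries differ in Y-linked and Xist transcripts, given below, so this spread is not only technical. Between libraries alike in those transcripts it may be. The p27OE titles and the treatment text call the cells senescent and the series design text calls them non-senescent, and only the group names are used here.

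Lysosomes break down proteins, glycans and lipids delivered by endocytosis and autophagy. Their soluble hydrolases are made in the endoplasmic reticulum, receive a mannose phosphate tag in the Golgi and are carried to the lysosome by tag receptors, while heavily glycosylated membrane proteins line the organelle and hold its transporters and channels. Many of these genes are targets of the MiT/TFE transcription factors (Tfeb, Tfe3, Mitf), which bind an E-box with the core CACGTG, often within a longer element called CLEAR. The lysosomal compartment is known to expand in many senescent fibroblasts, and the beta-galactosidase stain used as a senescence marker reports the product of Glb1.

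The promoters of the lysosomal genes were read first for this core, because many such genes are known targets of factors that bind it. The fold changes, most of the same sign, were already known, and a part of these factors in them was not tested. RefSeq promoters (GRCm38.p6, 250 bases before to 50 after each gene start) were matched by symbol for 32 of the 36 genes. The palindrome CACGTG, which reads the same on both strands, was found in the promoters of 11 of these 32 genes (34.4%). Among all 27025 genes with a RefSeq promoter, whether or not they were tested for expression here, the share was 8.09%. The 7-base form TCACGTG, searched on both strands and contained within the sites above, was found in 9 of 32 (28.1%), against 4.29% of all genes. The full CLEAR palindrome, with GT before the core and AC after it, was found in none of the 32 and in 0.37% of all genes. By role, the core was present in 4 of 8 proteases, 5 of 12 glycosidases and sulfatases, 2 of 6 membrane proteins and none of 6 lipid enzymes and cofactors. A match is a run of letters and not a shown binding site, and the promoter of Fuca1, one of the 3 genes called below, held no CACGTG in this window.

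Windows round the core are shown for the cathepsin genes that rose, for Glb1 as the stain's gene, and for Lamp1, Mcoln1, Ctsa and Gla, which hold more than one copy. Of the 11 genes with the core, only Ctsd and Ctsf passed in the model with the group alone, described below. The core was also present in Gla, whose value was below 0, and in Ctsl, whose groups overlapped. The other promoters with it, not shown, are those of Gaa, Arsa and Naglu. Capitals mark CACGTG; each is written 5′ to 3′ on the gene's strand, and windows stop where GENCODE M21 places an exon, or hold at most 30 bases where the site lies inside one. The Ctsd sites begin 245 and 98 bases before the RefSeq start, the Ctsf site 79, the Glb1 site 48, the Mcoln1 sites 71 and 45, and the Lamp1 sites 61, 45, 28 and 15 bases before it. The Gla sites begin 227 and 194 bases before the start. The Ctsa sites begin 12 bases before and 6 after the downstream of its RefSeq starts, and both lie in annotated exons. The upstream Ctsa promoter, chr2:164832622-164832921, held no CACGTG.
Ctsd distal, chr7:142388039-142388077, minus strand: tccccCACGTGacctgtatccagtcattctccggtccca
Ctsd proximal, chr7:142387908-142387937, minus strand: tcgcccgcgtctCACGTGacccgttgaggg
Ctsf, chr19:4855046-4855129, plus strand: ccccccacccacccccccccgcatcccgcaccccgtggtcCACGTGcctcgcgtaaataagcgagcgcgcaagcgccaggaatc
Glb1, chr9:114400990-114401075, plus strand: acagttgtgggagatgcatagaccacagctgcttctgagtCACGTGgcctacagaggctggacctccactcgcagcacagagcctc
Mcoln1 distal, chr8:3500408-3500456, plus strand: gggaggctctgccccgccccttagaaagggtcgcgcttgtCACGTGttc
Mcoln1 proximal, chr8:3500462-3500491, plus strand: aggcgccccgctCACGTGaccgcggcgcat
Lamp1, chr8:13159060-13159160, plus strand: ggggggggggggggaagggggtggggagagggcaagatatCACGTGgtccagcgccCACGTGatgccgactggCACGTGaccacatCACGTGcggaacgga
Ctsa first, chr2:164833749-164833778, plus strand: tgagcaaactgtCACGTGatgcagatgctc
Ctsa second, chr2:164833766-164833795, plus strand: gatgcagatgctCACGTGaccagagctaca
Gla distal, chrX:134601215-134601244, minus strand: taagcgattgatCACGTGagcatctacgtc
Gla proximal, chrX:134601182-134601211, minus strand: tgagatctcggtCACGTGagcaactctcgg

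**Figure D1:**
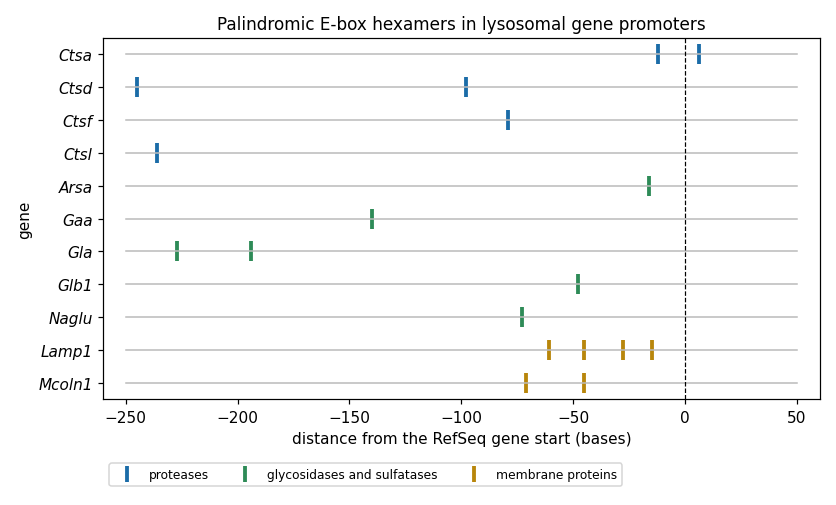
Positions of the E-box core in the 11 lysosomal promoters that hold it; the x axis is the distance from the RefSeq gene start in bases, each grey line spans the window searched, and each tick is the first base of a match, coloured by role. Lamp1 has 4 copies, all within 61 bases of the start, while the single Ctsl copy begins 236 bases before it. For Ctsa the downstream RefSeq start is used.

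Libraries held from 39183624 to 61219345 counts. Cdkn1b was at 43.9, 31.5 and 32.3 CPM (counts scaled to a common library size with TMM factors) in EV control 1, 2 and 3 and at 167, 232 and 337 CPM in p27OE 1, 2 and 3, so every p27OE library carried more of it than every control. Within both groups the libraries differed in Y-linked transcripts. Their summed level (Ddx3y, Eif2s3y, Kdm5d and Uty) was 0.125 and 1.95 CPM in EV control 1 and p27OE 1, 57.2 CPM in p27OE 2, and from 124 to 137 CPM in the other 3 libraries. A second model with this level as a term, chosen after the data had been seen, is therefore given beside the model with the group alone. All 10 fibroblast markers were present in every library, with summed levels from 41160 to 59330 CPM. Within this list Dcn ran from 8.275 to 92.7 CPM and Lum from 4.18 to 85.4 CPM, both highest in the libraries numbered 1. Of 15 macrophage markers 14 were counted, and they summed to 93.4 CPM in EV control 1 and to between 19.3 and 36.2 CPM elsewhere. Endothelial markers summed to between 10.6 and 13.5 CPM. Pecam1 and Cdh5 were below 0.2 CPM in every library, while Egfl7 reached 7.53 and Tek 6.49 CPM. Epithelial markers summed to between 2.0 and 8.24 CPM, with Epcam at no more than 0.132 CPM, while Krt18 reached 7.76 and Cdh1 2.25 CPM.

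Summed over the 36 genes, lysosomal transcripts were at a higher level in each p27OE library than in each control. Together the 36 genes took 0.688%, 0.67% and 0.664% of all counts in the 3 controls and 0.809%, 0.837% and 0.909% in p27OE 1, 2 and 3. Their summed level averaged 6749 ± 33.3 CPM over the controls and 8530 ± 894 CPM over the p27OE libraries (SD, n = 3), a ratio of 1.26, and 1.202 when Ctsd was left out. The groups did not overlap in this sum, and p27OE 3, the library with the highest Cdkn1b, was the highest. In bulk RNA a larger number of cells with many lysosomes and more lysosomal RNA per cell cannot be told apart.

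In the model with the group alone, 3 of the 36 genes passed (edgeR's quasi-likelihood test, Benjamini-Hochberg adjusted p under 0.05 over all genes), Ctsd, Ctsf and Fuca1, all higher in p27OE. Among all genes tested 2.61% passed, 1.77% higher and 0.843% lower. Of the 36 log2 fold changes, 32 were above 0 (88.9%, against 51.8% of all genes). The median over the 36 was 0.35, against 0.01 over all genes. A further 16 members had an adjusted p between 0.05 and 0.1, all of them above 0, so 19 of 36 were under 0.1, where 13.6% of all genes were. In 23 members every p27OE library exceeded every control, and in none was every p27OE library lower; 16.8% of all genes had groups that did not overlap with p27OE higher, and 16.5% with p27OE lower.

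**Figure D2:**
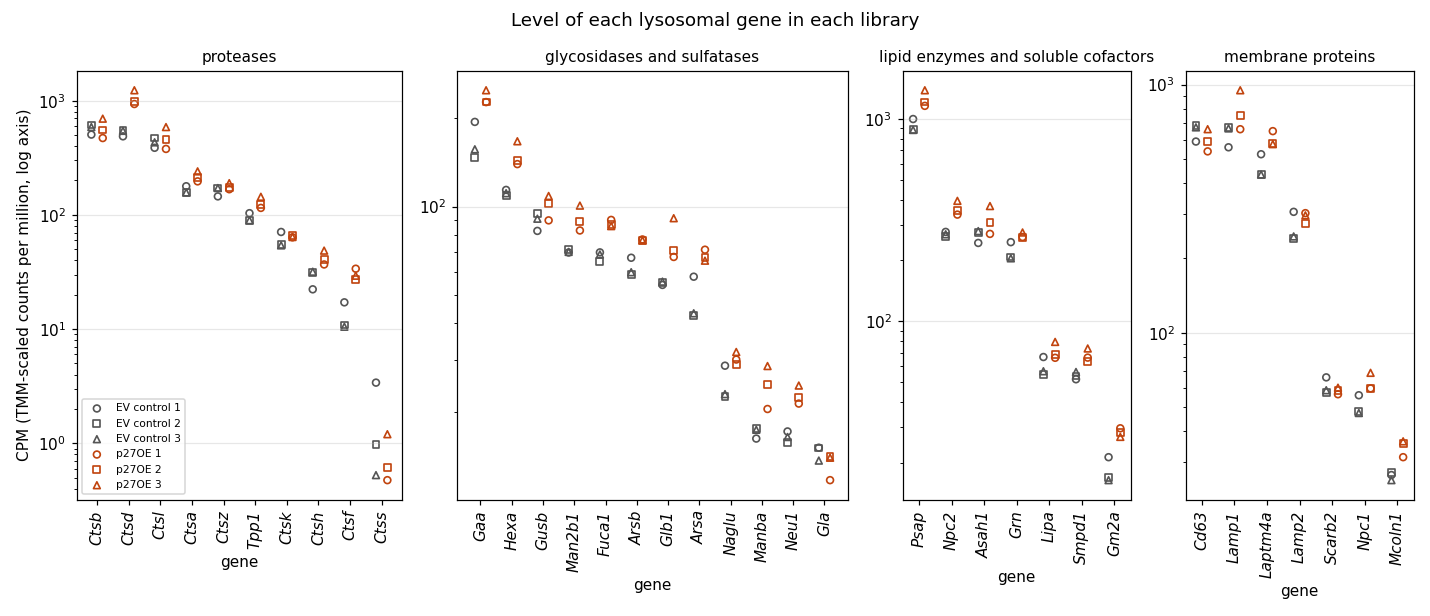
CPM of each lysosomal gene (log y axis; the 4 panels have their own scales) in the 6 libraries, 1 panel per role and genes ordered by EV control mean; grey symbols are EV control, orange symbols p27OE, and circle, square and triangle are libraries 1, 2 and 3. The orange symbols of Ctsd and Ctsf lie wholly above the grey ones, while those of Ctsb, Ctsl and Cd63 are mixed with them.

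The called proteases were Ctsd and Ctsf. Ctsd, on chromosome 7 at 142375911 to 142388038 (GRCm38, GENCODE M21), encodes cathepsin D, the main aspartic protease of the lysosome. Its level was 487, 550.0 and 544 CPM across the controls, against 934, 987 and 1233 CPM across p27OE. The groups lay far apart, with the lowest p27OE library well above the highest control. The log2 fold change was 0.996 ± 0.13 (SE; adjusted p = 0.0303 by edgeR). Per kilobase of exon, Ctsd stood at 224 ± 14.8 RPKM in EV control and 447 ± 67.8 RPKM in p27OE (SD, n = 3), the fourth highest level of the 36 genes in EV control and the second highest in p27OE. GENCODE M21 places exons of Gm49369 on the same strand over 34.4% of the exonic bases of Ctsd, and how the deposited counts treat such shared bases is not given in the sources used here.

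Ctsf, on chromosome 19 at 4855130 to 4860918, encodes the cysteine protease cathepsin F. It was at 17.2, 10.9 and 10.5 CPM across the controls, against 33.8, 27.2 and 29.3 CPM across p27OE. EV control 1 was the highest control, but it was still below every p27OE library. The log2 fold change was 1.23 ± 0.21 (SE; adjusted p = 0.0451 by edgeR), the largest of the 36. Per kilobase its level was low, 2.55 ± 0.743 RPKM in EV control and 5.97 ± 0.665 RPKM in p27OE (SD, n = 3).

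None of the other proteases passed in this model. Tpp1, a tripeptidyl peptidase (chromosome 7, 105744811 to 105752235), was at 104, 89.5 and 89.7 CPM across the controls, against 115, 124 and 144 CPM across p27OE. Its groups did not overlap, and its log2 fold change of 0.44 ± 0.11 (SE) did not pass (adjusted p = 0.0739 by edgeR). Ctsa, a carboxypeptidase that also protects Glb1 and Neu1 proteins, and Ctsh, an aminopeptidase, had values of 0.40 and 0.56, also without overlap of the groups and without passing. The cysteine cathepsins Ctsb, Ctsl, Ctsk and Ctsz had log2 fold changes between 0.01 and 0.14, and in each the groups overlapped. Ctsb was at 505, 613 and 588 CPM across the controls, against 471, 554 and 696 CPM across p27OE. The p27OE libraries thus held both the lowest and the highest Ctsb level, and the log2 fold change of 0.01 ± 0.16 (SE) was within the spread of the groups. Exons of Fdft1 on the opposite strand cover 12.8% of the exonic bases of Ctsb.

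Ctss, the cathepsin of antigen-presenting cells (chromosome 3, 95526786 to 95556403), had the lowest log2 fold change, −1.09 ± 0.74 (SE; adjusted p = 0.406 by edgeR), at a level near the limit of these libraries. It was at 3.40, 0.976 and 0.527 CPM across the controls, against 0.476, 0.615 and 1.202 CPM across p27OE. EV control 1 alone was high, and it was also the library with the highest summed macrophage markers (93.4 CPM). In EV control 1, Csf1r, Mrc1 and C1qa were at 9.23, 7.20 and 6.85 CPM, and none of them exceeded 3.05 CPM elsewhere. Every macrophage marker counted was highest in EV control 1 except Cd14, at 3.125 CPM there and 4.002 in EV control 2. Lyz2, the marker of highest level, was at 34.3 CPM there and 21.87 in p27OE 3. Without EV control 1 the Ctss value was −0.01, and without both libraries numbered 1 it was 0.23, passing in neither case. The part of other cell types in this value was not tested.

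Of the 12 glycosidases and sulfatases 11 had values above 0, and in 10 every p27OE library exceeded every control. Among all genes tested the shares were 51.8% and 16.8%. Fuca1, which encodes the lysosomal alpha-fucosidase (chromosome 4, 135920735 to 135940311), was at 69.8, 65.2 and 68.7 CPM across the controls, against 90.1, 86.7 and 85.8 CPM across p27OE. The spread within each group was small beside the gap between them. The log2 fold change of 0.37 ± 0.06 (SE; adjusted p = 0.045 by edgeR) was a rise of 1.29-fold.

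Glb1, the beta-galactosidase gene of the senescence stain (chromosome 9, 114401076 to 114474898), was at 54.1, 55.3 and 55.5 CPM across the controls, against 67.4, 70.9 and 91.3 CPM across p27OE. All p27OE libraries were higher, but they were far more scattered than the controls, and the log2 fold change of 0.48 ± 0.12 (SE) did not pass (adjusted p = 0.075 by edgeR). Its exons share 5.49% of their bases with Tmppe on the same strand. Neu1, the lysosomal sialidase (chromosome 17, 34931253 to 34935953), was at 17.1, 15.7 and 16.4 CPM in EV control against 21.3, 22.4 and 24.6 CPM, a log2 fold change of 0.47 ± 0.09 (SE; adjusted p = 0.0512 by edgeR). Hexa, the alpha chain of beta-hexosaminidase (chromosome 9, 59539540 to 59565109), was at 114, 109 and 111 CPM in EV control against 140, 143 and 167 CPM, a log2 fold change of 0.43 ± 0.09 (SE; adjusted p = 0.0565 by edgeR). Neither passed, although in both the groups did not overlap; exons of Tmem202 on the opposite strand cover 12.8% of the exonic bases of Hexa.

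Gaa (acid alpha-glucosidase), Man2b1 and Manba (mannosidases), Naglu (a heparan sulfate enzyme) and the sulfatase genes Arsa and Arsb had log2 fold changes between 0.30 and 0.53, none passing and none with overlapping groups. Arsb was unusually tight in p27OE, at 77.3, 76.8 and 76.8 CPM, but exons of genes on the opposite strand cover 39.9% of its exonic bases. Gusb, the beta-glucuronidase gene often used as a reference in PCR assays, was at 0.16 with overlapping groups. Gla, the alpha-galactosidase gene on the X chromosome (134588149 to 134601125), was the 1 glycosidase below 0. It was at 15.1, 15.1 and 13.6 CPM across the controls, against 11.7, 14.1 and 13.9 CPM across p27OE. Only p27OE 1 stood below the controls, and the log2 fold change of −0.14 ± 0.11 (SE; adjusted p = 0.471 by edgeR) did not exceed the spread of the groups.

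All 7 genes of lipid breakdown and its cofactors had values above 0 (51.8% of all genes did), from 0.25 to 0.63, and none passed. Gm2a, the activator protein that presents ganglioside to beta-hexosaminidase (chromosome 11, 55098115 to 55113029), had the largest. It was at 21.3, 16.9 and 16.4 CPM across the controls, against 29.6, 28.2 and 26.8 CPM across p27OE. The groups were clearly apart, and the log2 fold change of 0.63 ± 0.12 (SE) stopped just short of the threshold (adjusted p = 0.0518 by edgeR).

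Psap, the precursor of the saposins that help sphingolipid hydrolases (chromosome 10, 60277627 to 60302597), had the highest level of the 36 genes per kilobase, 337 ± 24.3 RPKM in EV control and 458 ± 43.0 RPKM in p27OE (SD, n = 3). It was at 1001, 886 and 884 CPM across the controls, against 1163, 1216 and 1389 CPM across p27OE, a log2 fold change of 0.44 ± 0.11 (SE; adjusted p = 0.0692 by edgeR). Npc2, which carries cholesterol out of the lysosomal lumen (chromosome 12, 84754562 to 84773152), was at 277, 263 and 270 CPM in EV control against 337, 353 and 394 CPM, a log2 fold change of 0.42 ± 0.09 (SE; adjusted p = 0.0554 by edgeR). In both genes every p27OE library was above every control. Smpd1 (acid sphingomyelinase) and Grn (progranulin, which travels with prosaposin) also had groups apart, at 0.33 and 0.27, whereas Asah1 (acid ceramidase) and Lipa (acid lipase), at 0.25 and 0.26, had overlapping groups.

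Of the 7 membrane proteins 5 had values above 0 (51.8% of all genes did), and none passed. Mcoln1, the TRPML1 calcium channel (chromosome 8, 3500457 to 3515232), was at 26.7, 27.3 and 25.5 CPM across the controls, against 31.5, 35.8 and 36.5 CPM across p27OE, a log2 fold change of 0.39 ± 0.08 (SE; adjusted p = 0.0627 by edgeR). Laptm4a, a small transmembrane protein (chromosome 12, 8921664 to 8938742), was at 524, 434 and 434 CPM in EV control against 649, 577 and 575 CPM, a value of 0.37 ± 0.11 (SE; adjusted p = 0.0965 by edgeR). Npc1, the sterol transporter that takes cholesterol from Npc2 (chromosome 18, 12189692 to 12236400), was at 56.0, 48.1 and 47.5 CPM in EV control against 59.6, 59.8 and 68.9 CPM, a value of 0.31 ± 0.10 (SE; adjusted p = 0.109 by edgeR). In these genes the libraries of the groups were separate, and the library numbered 1 was the highest control for Laptm4a and Npc1. Of the exonic bases of Npc1, 5.31% are shared with genes on the opposite strand.

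The coat proteins of the membrane did not separate. Lamp1 (chromosome 8, 13159161 to 13175338) was at 559, 672 and 666 CPM across the controls, against 661, 751 and 949 CPM across p27OE. p27OE 1 lay among the controls, and the log2 fold change of 0.32 ± 0.15 (SE) did not pass (adjusted p = 0.255 by edgeR). Exons of Grtp1 on the opposite strand cover 9.31% of its exonic bases. Lamp2 (X chromosome, 38401357 to 38456454) was at 307, 241 and 244 CPM in EV control against 303, 275 and 297 CPM, so that EV control 1 was the highest of the 6 libraries and the value was 0.14 ± 0.12 (SE; adjusted p = 0.48 by edgeR). The tetraspanin gene Cd63 (chromosome 10, 128900989 to 128912822) was at 589, 685 and 672 CPM in EV control against 538, 588 and 661 CPM, and Scarb2, the receptor that carries beta-glucocerebrosidase to the lysosome (chromosome 5, 92441314 to 92506833), was at 66.1, 57.5 and 58.7 CPM in EV control against 56.5, 58.3 and 60.03 CPM. Their log2 fold changes were −0.12 ± 0.11 and −0.06 ± 0.08 (SE; adjusted p = 0.526 and 0.667 by edgeR), within overlapping groups. The ratio of summed levels, p27OE to EV control, was 1.13 for the membrane genes, 1.31 for glycosidases and sulfatases, 1.31 for the lipid role and 1.35 for proteases, but 1.12 for the proteases without Ctsd. By median log2 fold change the proteases were at 0.27 and the membrane genes at 0.31. The roles were not tested against each other.

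**Figure D3:**
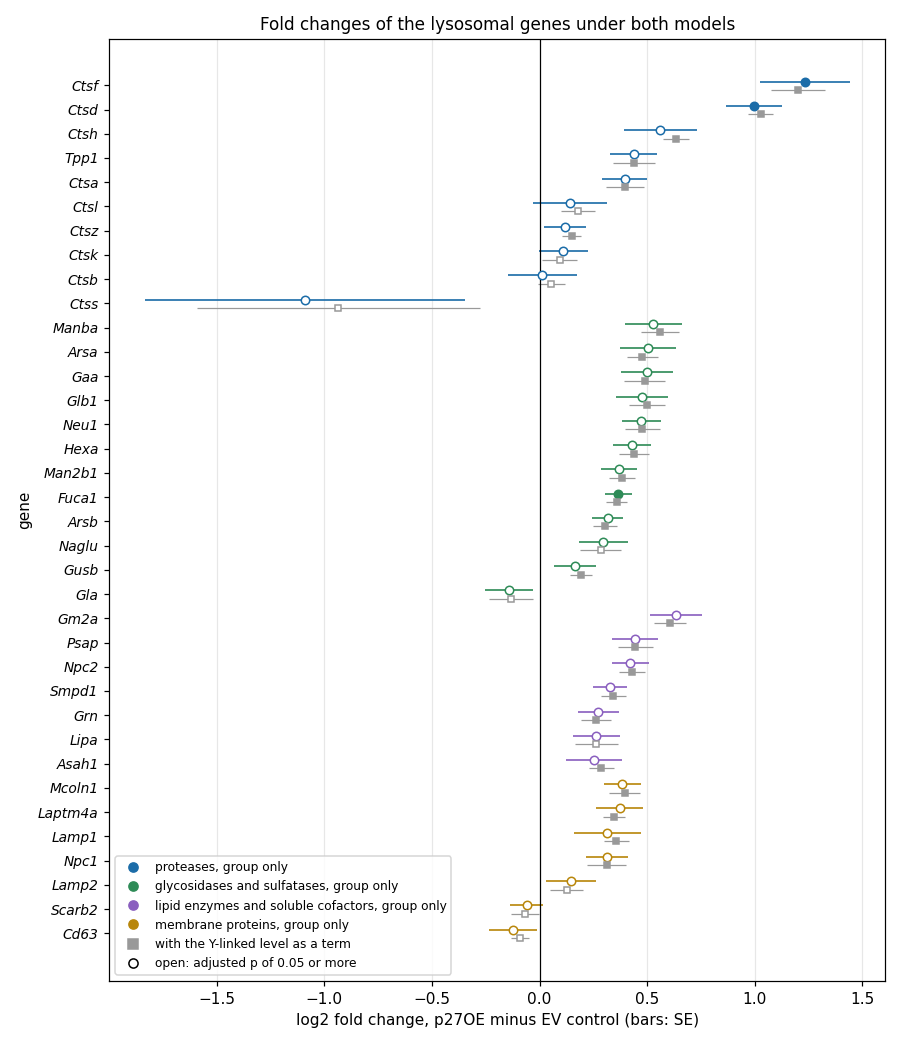
Log2 fold change of each gene (x axis, p27OE minus EV control, bars are SE) with the group alone (coloured circles, by role) and after adding the Y-linked level to the model (grey squares); filled symbols passed an adjusted p of 0.05 and open ones did not. The positions of the paired symbols are close while all 36 grey squares have the shorter bars, so that 3 circles and 26 squares are filled.

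Between the model with the group alone and that with the Y-linked level the calls differed far more than the fold changes. With the level included 26 of the 36 genes rose and none fell, where 34% of all genes passed, 18% higher and 16% lower. By role, 6 of 10 proteases, 10 of 12 glycosidases and sulfatases, 6 of 7 lipid genes and 4 of 7 membrane genes rose in this model. The median over the 36 genes was 0.35 in both models. Lamp1 rose by 0.36 ± 0.06 (SE; adjusted p = 0.00442 by edgeR), Glb1 by 0.50 ± 0.08 (adjusted p = 0.00547 by edgeR) and Ctsh by 0.63 ± 0.06 (adjusted p = 0.000848 by edgeR). Ctsb, Ctsk, Ctsl, Ctss, Gla, Naglu, Lipa, Lamp2, Cd63 and Scarb2 did not pass in it. Leaving out each library in turn with this term gave from 19 to 31 called members, where from 15% to 44.1% of all genes passed.

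The 3 calls of the model with the group alone also passed without EV control 1. There 17 of 36 genes rose and 12.9% of all genes passed (6.13% higher, 6.75% lower). The same held without both libraries numbered 1, where 23 rose and 16.7% of all genes passed (7.81% higher, 8.9% lower). In both fits the controls left are EV control 2 and 3, far more alike than any other pair within a group. The control spread there is that of this pair alone and may be only technical. The 3 calls were lost on leaving out any single library other than EV control 1, where 0 members and 1 or 2 of all genes passed. The Ctsd value still stayed between 0.86 and 1.06. DESeq2 called 20 of the 36 genes higher and none lower, where it called 15.4% of all genes (7.59% higher, 7.77% lower).

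**Figure D4:**
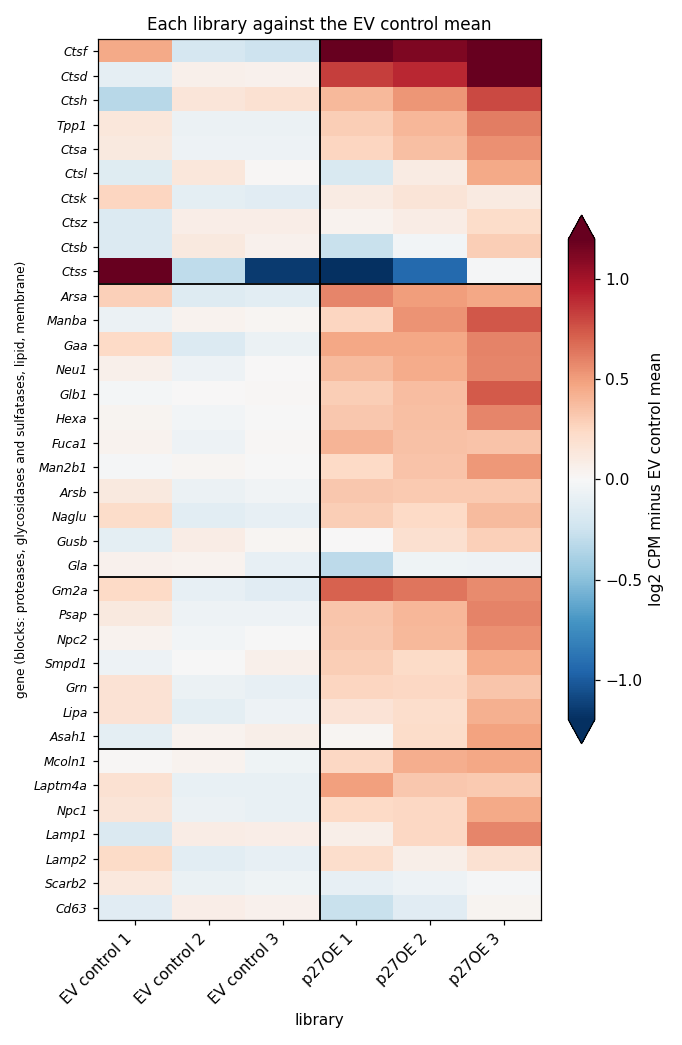
Log2 CPM of each gene in each library minus the mean of the 3 EV control libraries (colour scale, capped at 1.2 in either direction; red is higher); columns are libraries and rows are genes in 4 blocks by role. The p27OE columns are red for most rows, most strongly in p27OE 3, where the median over the 36 genes was 0.46 against 0.26 in p27OE 1, and Ctss is red in EV control 1 alone.

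The difference between groups was smaller between the libraries of low Y-linked level than between those of high level. p27OE 1 exceeded EV control 1 in 27 of 36 genes, with a median difference of 0.21 in log2 CPM. p27OE 3 exceeded the mean of EV control 2 and 3 in 34 of 36, with a median of 0.51. Over all 13990 genes tested the same counts were 6958 and 7303, with medians of −0.002 and 0.026. The high-level difference was the larger in 33 of 36 genes, against 51.6% of all genes tested; the exceptions were Ctsh, Ctsz and Fuca1. Ctsd differed by 0.94 and 1.17, Ctsf by 0.98 and 1.46, and Fuca1 by 0.37 and 0.36 in the low-level and high-level libraries. Cdkn1b differed by 1.92 and 3.40 in the same libraries. The low-level difference rests on 1 library in each group and the high-level one on 1 p27OE library. p27OE 2 is in neither, so no test was made. The number and the Y-linked, Xist and Cdkn1b levels of these libraries cannot be told apart.

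**Figure D5:**
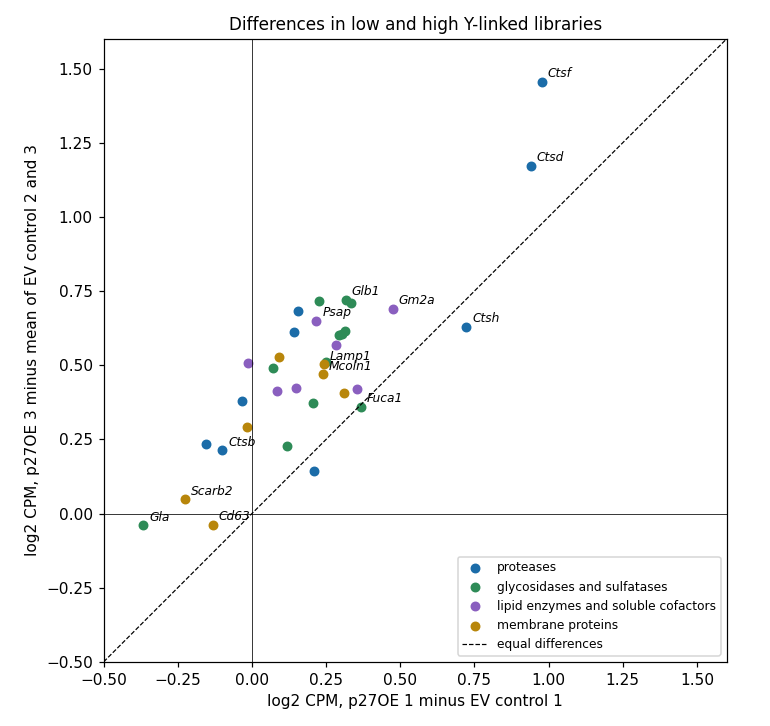
Difference between p27OE and EV control in log2 CPM for each gene, in the libraries of low Y-linked level (x axis, p27OE 1 minus EV control 1) and of high level (y axis, p27OE 3 minus the mean of EV control 2 and 3), coloured by role; the dashed line marks equal differences, and Ctss, at −2.73 and 0.71, is left out. Most points lie above the line, and Ctsd and Ctsf lie apart from the rest, at the upper right.

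A further 42 genes of lysosome biology, listed apart from the members, were compared in the same model, and none passed when the group was the only term (17 had an unadjusted p under 0.05, as did 26% of all genes; DESeq2 called 12, against 15.4% of all genes). With the Y-linked level modelled 19 rose and 1, Ctsc, fell, where 18% of all genes were higher and 16% lower. Among 21 other hydrolase genes, 17 had values above 0 (51.8% of all genes did) with a median of 0.25. Ids, the iduronate sulfatase gene, and Ppt1, the palmitoyl thioesterase gene, had values of 0.32 ± 0.07 and 0.29 ± 0.07 (SE). Ctsc, which encodes the dipeptidyl peptidase cathepsin C, was named after its values were seen. It was at 43.5, 50.2 and 46.9 CPM across the controls, against 22.6, 32.3 and 35.7 CPM across p27OE, lower in every p27OE library (−0.63 ± 0.17, SE; adjusted p = 0.0843 by edgeR), the opposite side from Ctsd and Ctsf.

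Of 10 sorting and maturation genes 6 lay above 0, against 51.8% of all genes tested. Sumf1, whose product activates the sulfatases, was at 66.2, 59.3 and 61.2 CPM in EV control against 81.5, 77.9 and 88.6 CPM, with no overlap and a value of 0.41 ± 0.08 (SE; adjusted p = 0.0521 by edgeR), and Gga1, an adaptor of the tag receptors, had a value of 0.24 ± 0.06 (SE). Among 6 genes of the MiT/TFE factors and the folliculin arm, 3 lay above 0 and 3 below. Tfeb, Tfe3 and Mitf, named after their values were seen, had values of −0.19, −0.08 and −0.03, none passing in either model. Flcn and Fnip1, which encode folliculin and its partner in nutrient control of these factors, had values of 0.28 ± 0.11 and 0.28 ± 0.11 (SE), without passing in the model with the group alone. Among 5 inhibitors of cathepsins, Cst3 (cystatin C) had a value of 0.34 ± 0.09 and Cst6 (cystatin E/M) 1.54 ± 0.31 (SE; adjusted p = 0.0758 and 0.0554 by edgeR), the second from 19 to 79 counts per library.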

How the data were processed

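RNA of 6 mouse embryonic fibroblast libraries (3 EV control, 3 p27OE) was counted per gene symbol. The submitters' processing notes name featureCounts 1.4.6, Subread, TopHat2 2.0.14, Bowtie2 2.2.6 and the build mm10. For annotation, strand setting and filters, nothing is given in the sources used here. Values deposited are whole-number read counts, not normalised by the authors. Genes kept by filterByExpr (13990, with 99.976% of all counts) were scaled by TMM and tested, two-sided, with edgeR 4.0.16 (R 4.3.3) in a model of the group alone. CPM was computed from the deposited counts and TMM factors, RPKM by dividing CPM by the union exon length in GENCODE M21 (GRCm38, the assembly of mm10), which matched all 36 members by symbol, and log2 CPM with a prior count of 2. Depth, from 39183624 to 61219345 counts, limits the precision of genes with few reads, such as Ctss, Cst6 and Ctla2b. Between libraries of a group the chi-square per gene was 6.51 for EV control 2 and 3, and from 55.53 to 188.5 for the other pairs. All were more than sampling noise, so no pair held the same counts deposited again. By this measure EV control 2 and 3 were far more alike than the other pairs. Whether they share a culture or an RNA sample is not known. The controls may therefore hold fewer than 3 independent cultures. Standard errors are those of the edgeR model.

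Named members were those called, the 3 of smallest p in each role, Glb1, Lamp1, Lamp2 and every member below 0; of each further list, the 2 of smallest p. Members, lists and alternatives were chosen with earlier results of these data known, so no list was tested as a whole. On simulated counts with known changes the edgeR fit returned the folds put in, but false calls made up a larger share of its calls than the threshold nominally allows, so calls near the threshold are uncertain. The alternatives were RLE scaling, no filter, a filter of 1 CPM in 3 libraries, DESeq2 1.42.0, limma-voom (limma 3.58.1), the replicate number as a block, and each library left out in turn; the Y-linked term, alone or with each library left out, and a fit lacking both libraries numbered 1 were added after seeing the data.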

Additional observations from a re-analysis of the deposited data

How the results depend on the processing

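Calls depended strongly on the processing. The median log2 fold change of the 36 genes lay between 0.282 and 0.45 in every setting run, the highest from the Y-linked term without EV control 1, and from 29 to 34 members lay above 0. Single genes moved more when 1 library was left out: Lamp1 ranged from 0.16 to 0.41, Ctsb from −0.15 to 0.12, Ctsl from −0.04 to 0.26 and Ctss from −1.57 to −0.01. With RLE scaling 3 members passed, where 2.34% of all genes did. Without a filter 2 members, Ctsd and Ctsf, passed and 0 glycosidases and sulfatases, where 1.74% of all genes did. Fuca1 was just short there (adjusted p = 0.0547 by edgeR). With a filter of 1 CPM in 3 libraries 6 members passed (2 glycosidases and sulfatases, 2 lipid genes) and 2 further lysosomal genes. In that setting 4.04% of all genes passed. With limma-voom 5 members passed, with 2 glycosidases and sulfatases and 1 lipid gene among them, where 3% of all genes did. DESeq2 called 2145 genes, with 20 members (5 proteases, 9 glycosidases and sulfatases, 4 lipid, 2 membrane) and 12 further lysosomal genes. The Y-linked term gave 4761 genes, with 26 members (6, 10, 6 and 4 by the same roles) and 20 further genes. Leaving out both libraries numbered 1 gave 2334 genes, with 23 members (5, 10, 5 and 3) and 9 further genes, and turned Ctss to 0.226 and Scarb2 to 0.009, neither of which passed. The cause of these differences was not tested.

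Libraries with the same number were not treated as pairs, because the correlation of their deviations from the group mean was not above 0.1 in each. It was 0.669, 0.043 and 0.495 for numbers 1, 2 and 3. Between libraries of unlike number it reached 0.555, for EV control 2 with p27OE 3. Correlations of such deviations are not independent of each other, so they cannot decide whether the libraries are paired. With the replicate block 2410 genes passed (17.2% of all tested), with 20 members (5 proteases, 9 glycosidases and sulfatases, 4 lipid, 2 membrane) and 13 further lysosomal genes.

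Leaving out 1 library at a time gave from 1 to 1827 genes and from 0 to 17 members (proteases 0 to 4, glycosidases and sulfatases 0 to 7, lipid 0 to 4, membrane 0 to 2, further genes 0 to 7), the highest of each without EV control 1. With the Y-linked term as well, 2137 to 6257 genes passed (2372 without EV control 2, and 4035, 2971 and 4024 without p27OE 1, 2 and 3) and the ranges were 19 to 31 members (proteases 3 to 8, glycosidases and sulfatases 9 to 11, lipid 4 to 7, membrane 3 to 5, further genes 9 to 25, with 16 and 18 without p27OE 2 and 3); without p27OE 3, 1 of its 26 called members, Ctss, was lower. Depth limits Ctss, with 22 counts in its lowest library, Cst6, with 19, and Ctla2b, with 11.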
